A study of Mus musculus with 2 samples.

Results

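At E10.5 (E, embryonic day), 126 Crabp1-positive cells were found among the 891 second heart field cells dissected from the middle and posterior positions, of 1500 cells in all. They were chosen by a count: at least 2 unique molecular identifiers (UMIs, each standing for 1 captured RNA molecule) of Crabp1 and none of Epcam, the epithelial adhesion gene. The middle library held 103 of them and the posterior library 23. They are set beside 521 Crabp1-negative cells of those 2 libraries, 130 middle and 391 posterior, with 0 UMIs of both genes. The other cells had 1 Crabp1 UMI and no Epcam (96 cells) or at least 1 Epcam UMI (29 middle and 119 posterior cells).

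The study took second heart field from wild-type mice at E9.5 and E10.5, with 1 sample per stage and no transgene or treatment named in the labels. Trypsin-dissociated cells went through the 10x Genomics Chromium droplet system, and a barcode suffix marks the dissected position. The labels describe the cells as Osr1-positive, and every cell held at least 1 UMI of Osr1, a zinc finger gene of lateral and intermediate mesoderm. How many embryos were pooled and how the Osr1-positive cells were chosen are not given in the sources used here.

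Crabp1 encodes a cytoplasmic protein that binds retinoic acid and passes it on, in part to the enzymes that break it down. Retinoic acid made by Aldh1a2 in posterior mesoderm is known to limit the second heart field, the progenitor pool behind the heart tube that lengthens it at both poles. In the mouse embryo Crabp1 is known from neural crest and its mesenchyme, the hindbrain and the limb buds. Crym encodes mu-crystallin, a cytoplasmic thyroid hormone binding protein.

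The transcription factor genes Msx1, Msx2, Shox2 and Twist1 were 3.37-fold to 6.73-fold higher in Crabp1-positive than in Crabp1-negative cells of the same libraries. The smooth muscle actin gene Acta2, the forkhead gene Foxf2, the Wnt ligand gene Wnt4 and the retinoic acid synthesis gene Aldh1a2 were lower. Most lists of related genes held 1 such gene or none. The class was mixed: by clustering, 42 cells lay with Crym, Prrx1 and Twist1 and 12 with Zic1, Msx1 and Lum. Another 27 lay with Lix1 and Irx1 and 14 with Mgp and Rspo2, in clusters where most cells were not Crabp1-positive. A further 13 lay in a small cluster led by neural genes such as Tubb3 and Stmn2. The name mesenchyme therefore does not cover all 126 cells, and they are called Crabp1-positive cells here.

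All values compare summed counts of cells from 1 E10.5 sample. Cells are not replicates, so no test was made and no p-value is given. Levels are in CPM, the UMI count of a class scaled to its total. A fold is the Crabp1-positive over the Crabp1-negative CPM, combined over both libraries with Mantel-Haenszel weights, and the range after it is a 95% interval that covers counting error only. A gene counts as measured when at least 10 UMIs were expected in the Crabp1-positive cells, and as higher or lower when the combined fold was at least 2 or at most 0.5 with the same direction in both libraries.

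The classes differed somewhat in depth. Crabp1-positive cells summed to 644906 UMIs in the middle and 153512 in the posterior library, against 698190 and 2217706 for Crabp1-negative cells. The median cell held 5882 UMIs (middle) and 5487 (posterior) in the positive class, against 4918.5 and 5215 in the negative class. One barcode was shared by the middle and posterior libraries, and it belonged to no Crabp1-positive cell. Scrublet marked 2 of 331 middle and 7 of 560 posterior cells as doublets, with 0 Crabp1-positive cells among them; 331 cells is a small library for such a caller.

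Crabp1-positive cells were common towards the anterior and rare in the posterior library. They made up 45.2% of outflow tract cells (14 of 31; exact Clopper-Pearson 95% interval 27.3% to 64.0%) and 77.8% of anterior cells (35 of 45; 62.9% to 88.8%). In the middle library the share was 31.1% (103 of 331; 26.2% to 36.4%), and in the posterior library 4.11% (23 of 560; 2.62% to 6.10%). After every cell was thinned to 4000 UMIs the shares were 41.9%, 71.1%, 23.3% and 3.57%. The order of the positions stayed as it was, while the middle share lay below its unthinned interval.

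**Figure D1:**
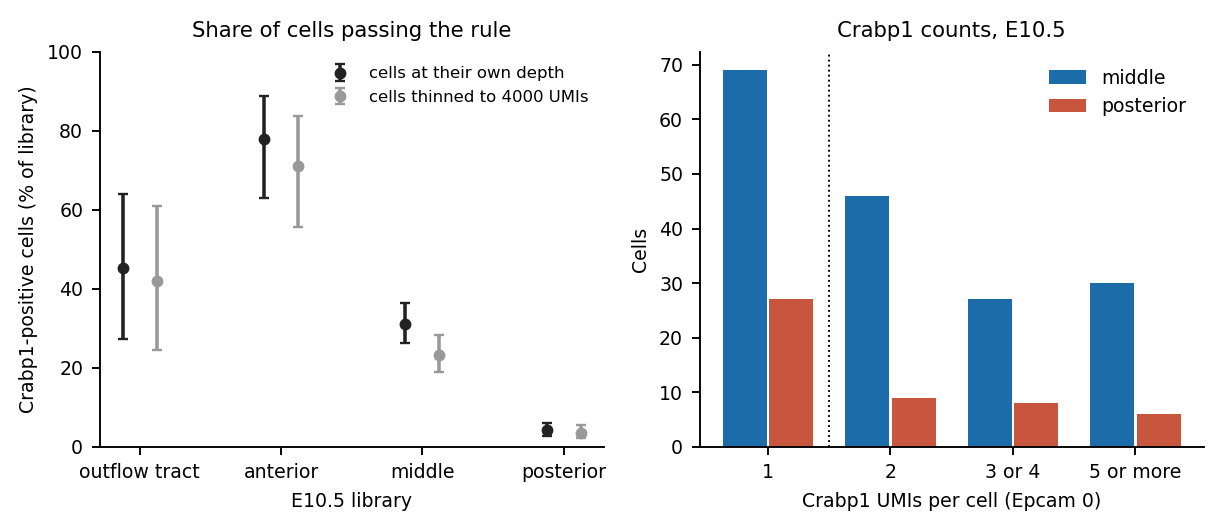
Left, share of E10.5 cells with at least 2 Crabp1 UMIs and no Epcam in each dissected library, at the cells' own depth (black) and thinned to 4000 UMIs (grey), with exact 95% intervals. Right, number of Epcam-negative cells by Crabp1 count, where the dotted line is the threshold; 96 cells lie just outside it and 55 just inside.

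Most members lay close to the threshold. Of the 126 cells, 55 held exactly 2 Crabp1 UMIs, 35 held 3 or 4 and 36 held 5 or more. The highest cell had 44 Crabp1 UMIs in the middle library and 8 in the posterior library. Crabp1 (chromosome 9, 54764748 to 54773110, GRCm38) was at 785 CPM in middle and 521 CPM in posterior Crabp1-positive cells, a level that the rule sets.

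Free RNA in droplets can leave a few UMIs in cells that do not express a gene, so the Epcam-bearing cells were counted for Crabp1. In the middle library 34.5% of cells with an Epcam UMI held at least 2 Crabp1 UMIs (10 of 29, median 5886 UMIs), against 34.1% of cells without Epcam. With at least 2 Epcam UMIs the share was 18.8% (3 of 16). Among the 14 middle cells of the cluster led by Epcam, Cldn7 and Krt7, 1 cell passed the threshold and 5 had at least 1 Crabp1 UMI (median 8331 UMIs). In the posterior library 2.52% of cells with an Epcam UMI passed (3 of 119), against 5.22% without, and 0 of 42 cells of that cluster did, with an exact upper limit of 8.41%. A single Epcam UMI therefore did not separate cells by Crabp1 in the middle library. At least 1 Crabp1 UMI was found in 62.1% of middle cells with an Epcam UMI (18 of 29) and in 57.0% of those without (172 of 302). In the posterior library these shares were 10.1% (12 of 119) and 11.3% (50 of 441). The part of free RNA in the cells near the threshold was not tested. Within the posterior library, clusters differed, with 1 of 82 cells of the cluster led by Hoxa7 and Fgf9 and 13 of 17 posterior cells of the cluster with most members holding any Crabp1 UMI.

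The other marker given for these cells, Crym, followed Crabp1 in a minority of them. Crym (chromosome 7, 120186380 to 120202111) had 30 UMIs in 13 of 103 Crabp1-positive middle cells, against 1 UMI in 1 of 130 Crabp1-negative middle cells. In the posterior library it had 1 UMI in 23 positive cells and 3 UMIs in 391 negative cells. The combined fold was 24.5 (4.67 to 129), which rests on the middle library. With both libraries given equal weight the fold was 3.81. With each cell thinned to 4000 UMIs the classes were set again from the thinned counts, giving 97 positive and 582 negative cells. The Crym fold was then 8.27 (2.95 to 23.2). E10.5 folds given after thinning use these changed classes, whereas thinned shares of cells keep the classes of the main rule. Thinned to 4000 UMIs per cell, 11 of 103 and 1 of 130 middle cells kept a Crym UMI. Crym was at 183 CPM in Crabp1-positive cells of the anterior library, against 46.5 CPM in those of the middle.

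Among 6611 measured genes, 79 were higher in Crabp1-positive cells (1.19%) and 133 lower (2.01%), by the rule of size above. Crabp1 itself was not counted. With at least 20 UMIs expected, 22 of the 79 and 38 of the 133 were still measured, so most of these genes rest on few UMIs. The genes with the largest and smallest folds are described by what they are known to do.

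**Figure D2:**
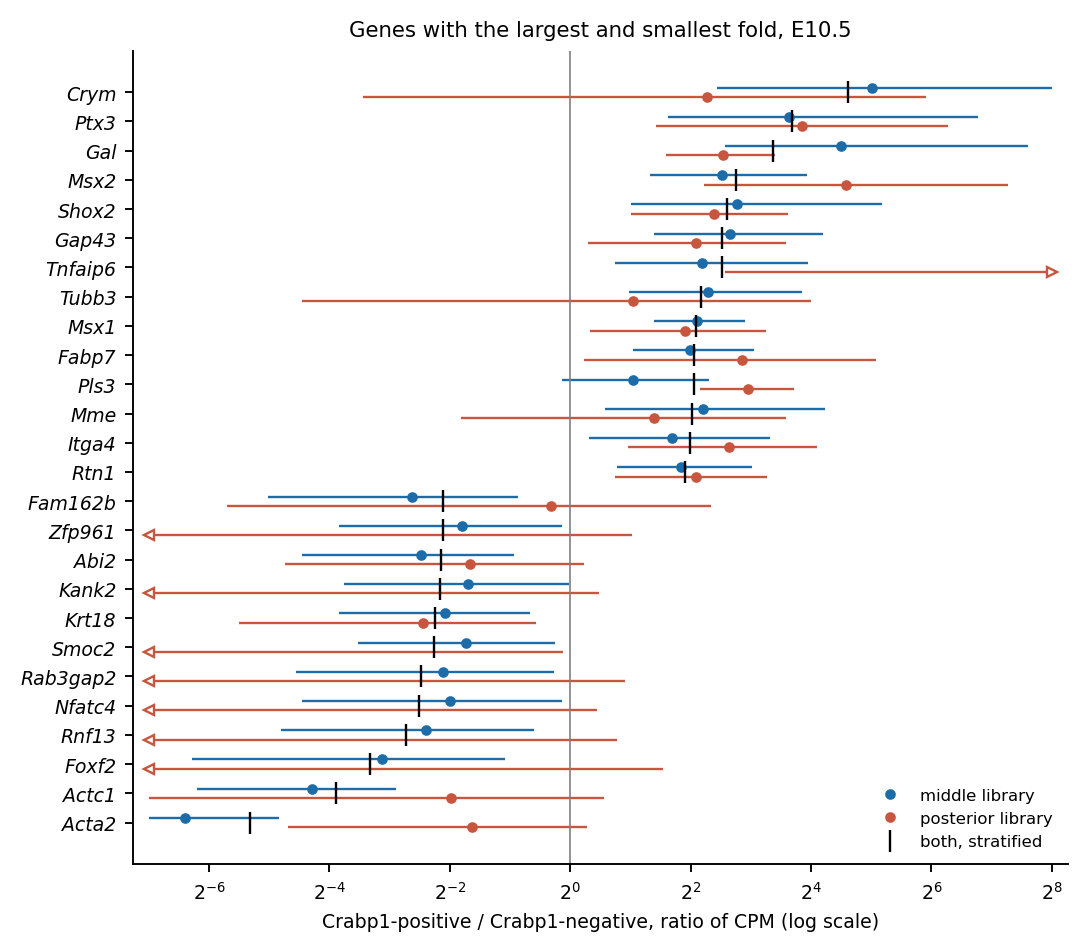
Fold of each gene (Crabp1-positive over Crabp1-negative CPM, log scale) in the middle (blue) and posterior (red) library with exact 95% counting intervals, and the combined fold (black bar), for named genes among the largest and smallest folds. Open triangles at the edges mark a class with 0 UMIs in that library, and intervals end at the plot's edge. Intervals of the posterior library, with 23 positive cells, are the wider ones for most genes.

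Msx1 and Msx2 are homeobox genes known as targets of BMP signalling in neural crest mesenchyme and limb bud. Msx1 (chromosome 5, 37820485 to 37824583) was at 124 CPM in positive and 28.6 CPM in negative middle cells, with a UMI in 32 of 103 and 10 of 130 cells. In the posterior library it was at 39.1 and 10.4 CPM, and the combined fold was 4.26 (2.73 to 6.63). Msx2 (chromosome 13, 53466884 to 53473074) was at 57.4 CPM in positive and 10.0 CPM in negative middle cells, and at 32.6 and 1.35 CPM in posterior cells, a combined fold of 6.73 (3.27 to 13.8). Both genes were thus higher at both positions, though posterior Msx2 rests on 5 UMIs in positive and 3 in negative cells. Posterior Msx1 was found in 3 of 23 positive and 20 of 391 negative cells. In the middle library, 43 of the Msx1 UMIs of positive cells lay in 12 cells of 1 cluster described below, at 578 CPM. Counting cells from 1 Crabp1 UMI up, the fold was 2.79 for Msx1 and 4.36 for Msx2.

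Shox2, a homeobox gene of the sinus venosus and limb (chromosome 3, 66971727 to 66981771), was 6.06-fold higher (2.86 to 12.8). Its middle counts were 19 UMIs in 11 positive cells and 3 UMIs in 3 negative cells. All 8 posterior UMIs of the positive class lay in 1 cell, so the posterior value of Shox2 is that of a single cell. Its fold was 3.42 after thinning.

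Twist1, a basic helix-loop-helix gene of mesenchyme and cranial neural crest (chromosome 12, 33957671 to 33959829), had the most UMIs among these. It was at 205 CPM in positive and 67.3 CPM in negative middle cells, and at 221 and 50.5 CPM in posterior cells. The combined fold was 3.37 (2.59 to 4.38). With depth made equal by thinning, 48 of 103 positive and 32 of 130 negative middle cells held a Twist1 UMI, and 10 of 23 and 58 of 391 posterior cells.

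Of 7 mesenchyme markers, all measured, Twist1 was the only one past the 2-fold size. Prrx1, a homeobox gene of limb and facial mesenchyme, was 1.71-fold higher combined (1.34 to 2.19), with 1.33 in the middle and 7.06 in the posterior library. Vim, the mesenchymal intermediate filament, was at 1.13-fold, Col3a1 at 1.03-fold, Col1a1 at 0.888-fold and the growth factor receptor gene Pdgfra at 0.711-fold. In the wider list of mesenchymal state and cadherin genes 19 were measured, 1 was higher (Twist1) and 2 lower, with a median log2 fold of 0.09 (−0.02 over all measured genes). The 2 lower ones were the ligand genes Pdgfa, at 0.289-fold (0.104 to 0.806), and Pdgfc, at 0.474-fold (0.294 to 0.765).

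Secreted and surface genes were also among the largest folds. Ptx3, a long pentraxin that binds hyaluronan-rich matrix, had 23 UMIs in 17 of 103 positive and 2 UMIs in 1 of 130 negative middle cells, with 4 UMIs in each posterior class, a fold of 12.9 (4.03 to 41.1). Tnfaip6, whose product also acts on hyaluronan matrix, had 21 UMIs in 17 positive and 5 UMIs in 5 negative middle cells. In posterior cells Tnfaip6 had 3 UMIs in 23 positive and 0 in 391 negative cells, and the combined fold was 5.72 (2.37 to 13.8). These 2 genes were thus spread over many cells, unlike Gal.

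Gal, the galanin neuropeptide gene, was 10.4-fold higher (5.41 to 19.9) on few cells. Its 42 middle UMIs lay in 5 positive cells, 24 of them in 1 cell, against 2 UMIs in 130 negative cells. Posterior Gal was at 104 CPM in positive and 18.0 CPM in negative cells. The peptidase gene Mme was 4.07-fold (1.64 to 10.1) and the integrin gene Itga4 3.95-fold higher (1.97 to 7.95), on 19 and 24 UMIs over both libraries.

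The BMP pathway list stood out by its median. Of its 19 genes 13 were measured, 5 were higher and 0 lower, 12 had a fold above 1, and the median log2 fold was 0.54. Over all measured genes 1.19% were higher, 3105 of 6611 had a fold above 1, and the median was −0.02. By library the BMP median was 0.32 in the middle and 0.56 in the posterior, and after thinning it was 0.33. Beside Msx1 and Msx2 the higher ones were Tbx2 and Tbx3, T-box repressors that respond to BMP, at 2.10-fold (1.18 to 3.71) and 2.06-fold (1.33 to 3.19), and Bambi, a pseudoreceptor that dampens BMP signalling, at 2.03-fold (1.49 to 2.76). These 3 lay just past the 2-fold size. In middle cells a Tbx2 UMI was found in 10 of 103 positive and 8 of 130 negative cells, Tbx3 in 21 and 12, and Bambi in 40 and 30. In posterior cells these counts were 7 of 23 and 29 of 391 for Tbx2, 8 and 51 for Tbx3, and 13 and 104 for Bambi. The targets Id1 and Id3 were at 1.46-fold and 1.28-fold and Smad7 at 1.66-fold. The ligand genes lay near 1: Bmp4 was at 1.10-fold (0.554 to 2.20) and Bmp7 at 0.989-fold (0.473 to 2.07). Bmp2 had 0 UMIs in 103 positive middle cells and 16 in 130 negative ones, with 2 and 4 posterior UMIs, and was below the measured limit.

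**Figure D3:**
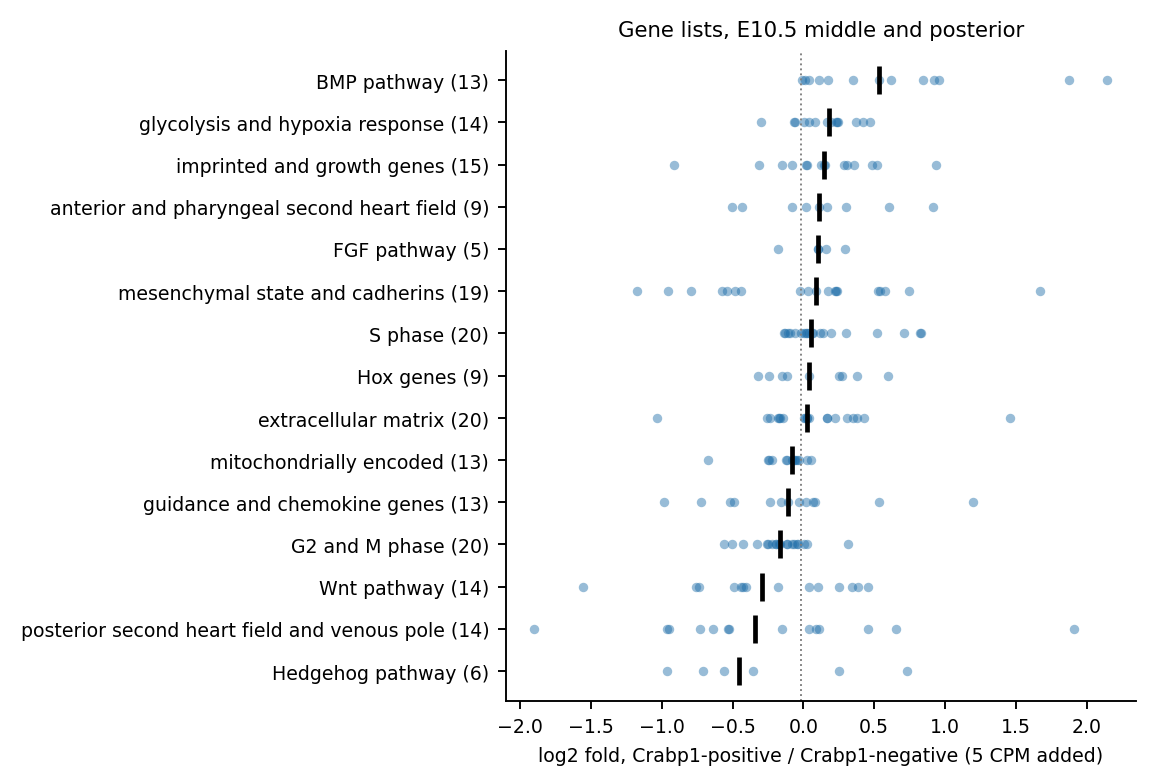
Log2 fold of each measured gene (dots, 5 CPM added to each class) in 15 gene lists, with the list median (black bar) and the number of measured genes in brackets. The dotted line is the median of all measured genes, −0.02. With both libraries combined, the BMP pathway list has the highest median, 0.54, and the Hedgehog list the lowest, −0.46. In the middle library alone these 2 medians were 0.32 and −0.09.

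Of the retinoic acid binding and transport genes 4 were measured beside Crabp1, and 0 were higher or lower. Crabp2, the second cellular retinoic acid binding protein, which carries the ligand to its receptors, was at 360 CPM in positive and 199 CPM in negative middle cells. In posterior cells it was at 215 and 74.4 CPM. The combined fold of Crabp2 was 1.96 (1.63 to 2.35), just under the 2-fold size. Fabp5, which carries fatty acids and retinoic acid, was at 1.12-fold (1.03 to 1.22), and Stra6, a membrane transporter of retinol, at 0.585-fold (0.28 to 1.22).

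Of 2 measured synthesis genes 1 was lower. It was Aldh1a2, which makes retinoic acid from retinal. Aldh1a2 (chromosome 9, 71215789 to 71296243), was at 57.4 CPM in positive and 127 CPM in negative middle cells. In posterior cells it was at 65.1 and 102 CPM, and the combined fold was 0.498 (0.359 to 0.691). After thinning, 15 of 103 positive and 56 of 130 negative middle cells held an Aldh1a2 UMI. Rdh10, which makes retinal, was at 0.817-fold (0.460 to 1.45). The receptor genes Rara and Rarb, the second also a direct target of retinoic acid, were at 0.710-fold (0.427 to 1.18) and 0.518-fold (0.260 to 1.03). The degrading enzyme gene Cyp26b1 had 1 UMI in positive cells of each library, so its level could not be compared at this depth.

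Of 4 measured thyroid hormone genes Crym alone was past the 2-fold size. The receptor gene Thra was at 0.831-fold (0.558 to 1.24) and the corepressor gene Ncor1 at 1.03-fold (0.835 to 1.28).

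Acta2 had the smallest fold of all measured genes, and few cells held its counts. Of 4 smooth muscle markers 2 were measured, with 1 lower, and their summed level was 63.6 CPM in positive and 839 CPM in negative middle cells but 111 and 87.0 CPM in posterior cells. Acta2, smooth muscle actin (chromosome 19, 34241090 to 34255590), had 3 UMIs in 3 positive middle cells, against 274 UMIs in 9 negative middle cells, 84 of them in 1 cell. In posterior cells it had 2 UMIs in 2 positive and 89 UMIs in 11 negative cells. The combined fold of Acta2 was 0.025 (0.011 to 0.055), and it varied with the setting: 0.0917 after thinning, 0.0952 for cells with at least 1 Crabp1 UMI, 0.0119 in the middle library and 0.325 (0.0799 to 1.32) in the posterior library. The thinned share of middle cells with an Acta2 UMI was 2 of 103 against 8 of 130. Actc1, the cardiac actin gene, was at 0.068-fold (0.029 to 0.16), with 85 UMIs in 8 negative middle cells, and at 0.253-fold (0.0351 to 1.83) in the posterior library alone. Myl9, a smooth muscle myosin light chain, was more widespread, with a UMI in 25 of 103 positive and 39 of 130 negative middle cells and a fold of 0.265 (0.190 to 0.370).

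Tagln, another smooth muscle gene, went opposite ways at the 2 positions. It was at 58.9 CPM in positive and 423 CPM in negative middle cells (0.139-fold, 0.097 to 0.196), and at 91.2 and 42.8 CPM in posterior cells (2.13-fold, 1.12 to 3.75). Of the 95 UMIs in negative posterior cells, 64 lay in 1 cell. The difference between the positions was not tested. In the anterior library, Crabp1-positive cells carried Acta2 at 478 CPM, with 94 UMIs in 4 of 35 cells.

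Of 5 foregut mesenchyme markers, all measured, 1 was lower, the homeobox gene Nkx6-1 at 0.481-fold (0.195 to 1.19). The Wnt ligand gene Wnt2 was the 1 marker with a fold above 1, at a log2 fold of 0.46 with 5 CPM added. A Wnt2 UMI was found in 19 of 103 positive and 21 of 130 negative middle cells, and in 6 of 23 and 67 of 391 posterior cells. Foxf2, a forkhead gene of gut mesenchyme (chromosome 13, 31625816 to 31631403), had 2 UMIs in 2 of 103 positive and 19 UMIs in 18 of 130 negative middle cells. In posterior cells it had 0 UMIs in 23 positive and 20 in 391 negative cells, and the combined fold was 0.0998 (0.0220 to 0.453), against 0.234 after thinning and 0.443 for cells with at least 1 Crabp1 UMI. Its relative Foxf1 (chromosome 8, 121084386 to 121088144) was at 242 CPM in positive and 437 CPM in negative middle cells, and at 91.2 and 276 CPM in posterior cells. Foxf1 lay just short of the size used here, at 0.506-fold (0.422 to 0.608), with a thinned share of 51 of 103 against 97 of 130 middle cells.

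The posterior second heart field list had 14 measured genes, with 1 higher (Shox2) and 2 lower (Foxf2 and Aldh1a2) and a median log2 fold of −0.34. Of these genes 8 had a fold below 1, against 3506 of all 6611. Tbx5, needed for atria and the venous pole, was at 0.598-fold (0.352 to 1.02), and Osr1, at 217 CPM in positive and 327 CPM in negative middle cells, at 0.685-fold (0.574 to 0.818). Every cell held an Osr1 UMI, so the level of Osr1 has a floor that is lower in deeper cells. By median UMIs the positive cells were the deeper ones in both libraries. The part of this floor in the Osr1 fold was not tested. Gata6, a zinc finger gene of cardiac mesoderm, was at 0.955-fold in the middle and 2.16-fold (1.36 to 3.31) in the posterior library.

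Barx1, a homeobox gene of stomach and pharyngeal arch mesenchyme (chromosome 13, 48662998 to 48666507), also differed in direction between positions. It was at 45.0 CPM in positive and 7.16 CPM in negative middle cells (6.28-fold, 2.40 to 20.8), and at 365 and 772 CPM in posterior cells (0.473-fold, 0.355 to 0.617). In positive middle cells 10 of its 29 UMIs lay in 1 cell.

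Other lower genes with many UMIs included Wnt4, Cxcl13, Msc and Krt18. Wnt4, a secreted Wnt ligand (chromosome 4, 137277489 to 137299726), was at 60.5 CPM in positive and 163 CPM in negative middle cells, and at 13.0 and 105 CPM in posterior cells, a combined fold of 0.317 (0.221 to 0.455). Wnt4 was the 1 lower gene of 14 measured in the Wnt list, of which 0 were higher and whose median log2 fold was −0.29. Sfrp2, a Wnt antagonist, was at 0.589-fold (0.45 to 0.771). The chemokine gene Cxcl13 was at 0.243-fold (0.143 to 0.413) and Msc, a basic helix-loop-helix repressor of branchiomeric muscle and mesenchyme, at 0.275-fold (0.151 to 0.499), both with a UMI in a smaller share of positive than negative cells at either position.

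Krt18, a keratin of simple epithelia, was at 7.75 CPM in positive and 32.9 CPM in negative middle cells, and at 13.0 and 71.2 CPM in posterior cells, a fold of 0.210 (0.092 to 0.477). Its partner Krt8 was at 1.08-fold (0.524 to 2.22) and not measured by the rule. The epithelial markers Cdh1, Foxa2 and Shh were at 0 UMIs in all 126 positive cells, and the summed epithelial list was at 29.5 CPM in positive and 63.0 CPM in negative middle cells and at 84.7 and 125 CPM in posterior cells. The part of epithelial RNA in the Krt18 value was not tested.

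The remaining genes among the 12 smallest folds rest on few UMIs. Rnf13, Nfatc4, Rab3gap2, Smoc2, Kank2 and Zfp961 had 3 to 5 UMIs in positive middle cells and 0 in positive posterior cells, and folds of 0.151 to 0.231. Of these Smoc2, a secreted matrix protein gene, had the highest negative counts, 18 middle and 60 posterior UMIs. Abi2 and Fam162b were at 0.226-fold and 0.232-fold, with 6 and 4 UMIs in positive cells.

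Anterior and pharyngeal field genes were all short of the size used here. Of 9 measured genes 0 were higher or lower, with a median log2 fold of 0.11. Tbx1, a regulator of pharyngeal arch and outflow development, was at 48.1 CPM in positive and 43.0 CPM in negative middle cells (1.12-fold, 0.655 to 1.91), and posterior cells held 0 and 5 UMIs. Isl1, a LIM homeobox gene of cardiac progenitors, was at 0.688-fold combined (0.489 to 0.970). Irx2 was at 2.53-fold (1.11 to 6.26) in the middle library, with 0 UMIs in positive posterior cells.

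Lists of growth, matrix, cycling and metabolic genes lay near the median of all genes. Median log2 folds were 0.15 for imprinted and growth genes (1 higher and 1 lower of 15), 0.03 for extracellular matrix (0 higher and 1 lower of 20) and 0.04 for Hox genes (0 of 9). They were 0.05 for S phase (0 of 20), −0.17 for G2 and M phase (0 of 20, with 17 below 1), 0.18 for glycolysis and hypoxia response (0 of 14) and −0.08 for mitochondrially encoded genes (0 of 13). Medians of FGF, guidance and Hedgehog genes were 0.11 (5 genes), −0.11 (13 genes) and −0.46 (6 genes). The Hedgehog median was −0.09 in the middle and −0.72 in the posterior library, and −0.17 after thinning. Dlk1, an imprinted gene of growing mesenchyme, was at 2.01-fold (1.45 to 2.78) and Plagl1, an imprinted zinc finger gene, at 0.497-fold (0.317 to 0.780). The small proteoglycan gene Dcn was at 0.425-fold (0.234 to 0.772), and Lum, a relative of it, had 21 UMIs in 10 positive and 2 UMIs in 2 negative middle cells but 0 and 23 UMIs in posterior cells. Of the guidance genes, Epha3 was at 2.88-fold (1.58 to 5.25) and Efna5, which encodes a ligand of such receptors, at 0.468-fold (0.293 to 0.747).

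Several of these genes also differed with the Crabp1 count inside the middle library. Crabp2 was at 199, 220, 307, 354 and 437 CPM in middle cells with 0, 1, 2, 3 or 4, and at least 5 Crabp1 UMIs. Twist1 was at 67.3, 99.1, 161, 230 and 245 CPM in those cells, and Dlk1 at 24.3, 37.5, 42.8, 80.8 and 113 CPM. For these 3 genes each step up in Crabp1 had the higher level, and counting intervals of neighbouring steps overlapped.

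Msx1 did not follow the count: it was at 28.6 and 18.8 CPM in cells with 0 and 1 Crabp1 UMIs, and at 153, 99.4 and 103 CPM in the 3 steps from 2 UMIs up. Crym was at 1.43, 34.8, 21.4, 31.1 and 93.3 CPM, so cells with a single Crabp1 UMI, just outside the threshold, already held 13 Crym UMIs. Wnt4 was at 163, 85.8, 32.1, 87.0 and 78.5 CPM and Aldh1a2 at 127, 75.0, 60.7, 74.6 and 39.3 CPM. Cells deeper in UMIs also reach higher Crabp1 counts: the median middle member held 5511.5 UMIs at 2 Crabp1 UMIs, and 5958 and 6207 UMIs in the steps above. The part of depth in these patterns was not tested.

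**Figure D4:**
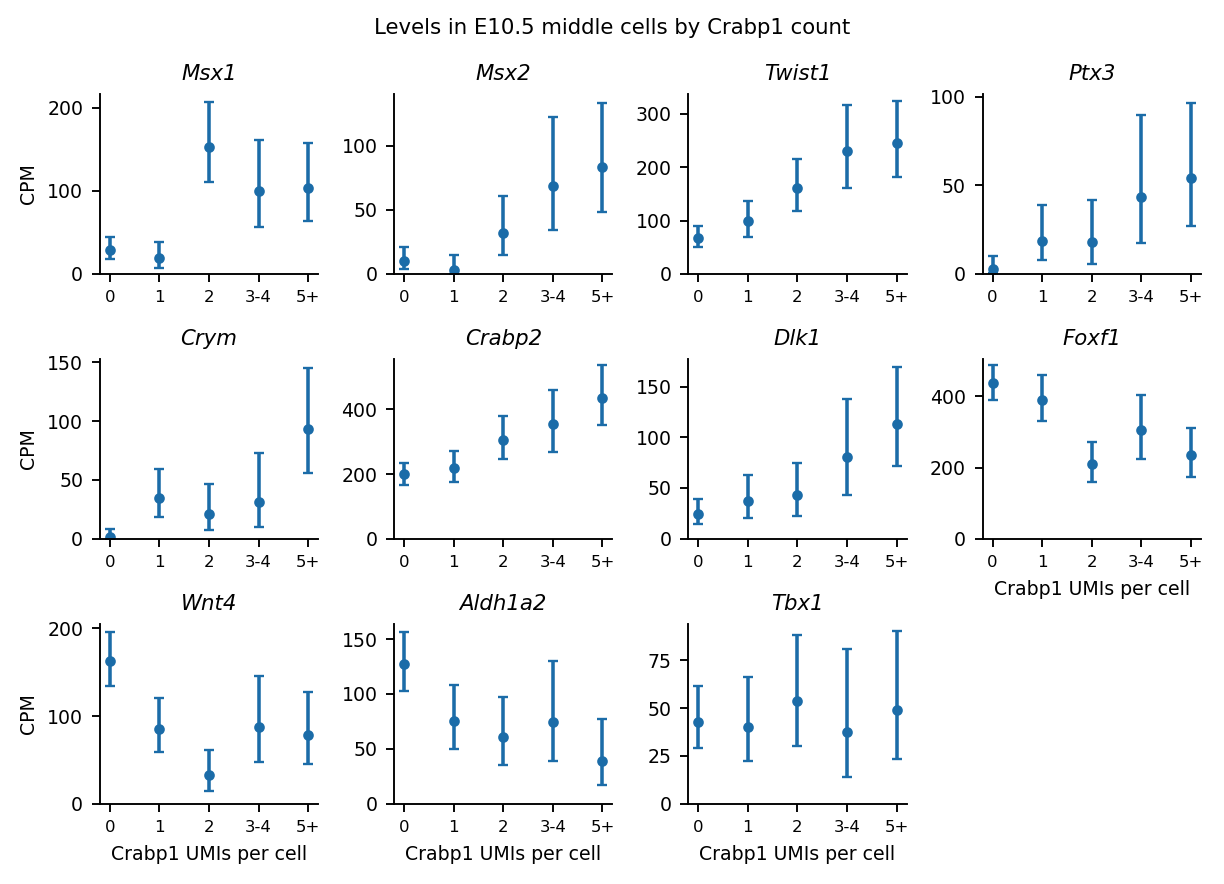
Level (CPM, with exact Poisson 95% intervals) of 11 genes in E10.5 middle cells without Epcam, by the number of Crabp1 UMIs in the cell, low to high. Crabp2, Twist1 and Dlk1 are highest at 5 or more Crabp1 UMIs, Msx1 is highest at 2, and Tbx1 is near level.

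Clustering of the 891 cells, made without Crabp1, Crym, Epcam and Osr1, placed the members in several groups. At Leiden resolution 0.6, 55 of the 126 cells (43.7%) lay in a cluster of 100 cells that held both smooth muscle and neural genes among its leading genes. Another 43 (34.1%) lay in a cluster led by Lix1, Rspo2 and Irx1, and 12 in a cluster of 13 middle cells led by Zic1, Msx1 and Lum. The posterior cluster led by Myl4, Myl7 and Tnnt2 held 10 of the 23 posterior members. No cluster was given a cell type name.

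At resolution 1.0 the largest group broke up. A cluster of 64 cells, led by Crym, Prrx1 and Twist1 beside Crabp1, held 42 members, 34 middle and 8 posterior. A cluster of 20 cells led by Tubb3, Fabp7 and Stmn2 held 13 members, 9 middle and 4 posterior. The clusters led by Lix1 and Irx1 and by Mgp and Rspo2 held 27 and 14 members, those of Zic1 and Msx1 12, and those of Acta2 and Tagln and of Myl4 and Myl7 6 each. Genes of the clustering were used to form these clusters, so their levels below are descriptions.

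The 42 members of the Crym and Prrx1 cluster held 25 of the 31 Crym UMIs, 63 of the Prrx1 UMIs and 79 of the Twist1 UMIs (314 CPM). They also had the highest Crabp2 level among these clusters, 473 CPM. These levels were not particular to the members. Over all 64 cells of that cluster Crym was at 98.3 CPM, against 99.3 CPM in the members, and Prrx1 at 268 against 250 CPM. Twist1 was at 311 against 314 CPM there, and Crabp2 at 473 CPM in both. The 12 members of the Zic1 cluster held 43 Msx1 UMIs (578 CPM), 23 Zic1 UMIs and 19 of the 21 Lum UMIs, and had the highest Twist1 level, 484 CPM, with 1 Foxf1 UMI (13.4 CPM). Zic1, a zinc finger gene of dorsal neural tube, neural crest and somites, was named after its values were seen.

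The 13 members in the neural gene cluster held 26 of the 28 Tubb3 UMIs of all members, 12 of the 15 Tfap2b UMIs and 31 Rtn1 UMIs. Tubb3 encodes neuronal tubulin, Tfap2b a neural crest and sympathetic factor and Rtn1 a neuronal membrane protein. Their Crabp1 level was the highest of the clusters, 1411 CPM, and their Prrx1 level the lowest, 51.1 CPM, with 0 Col1a1 UMIs.

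**Figure D5:**
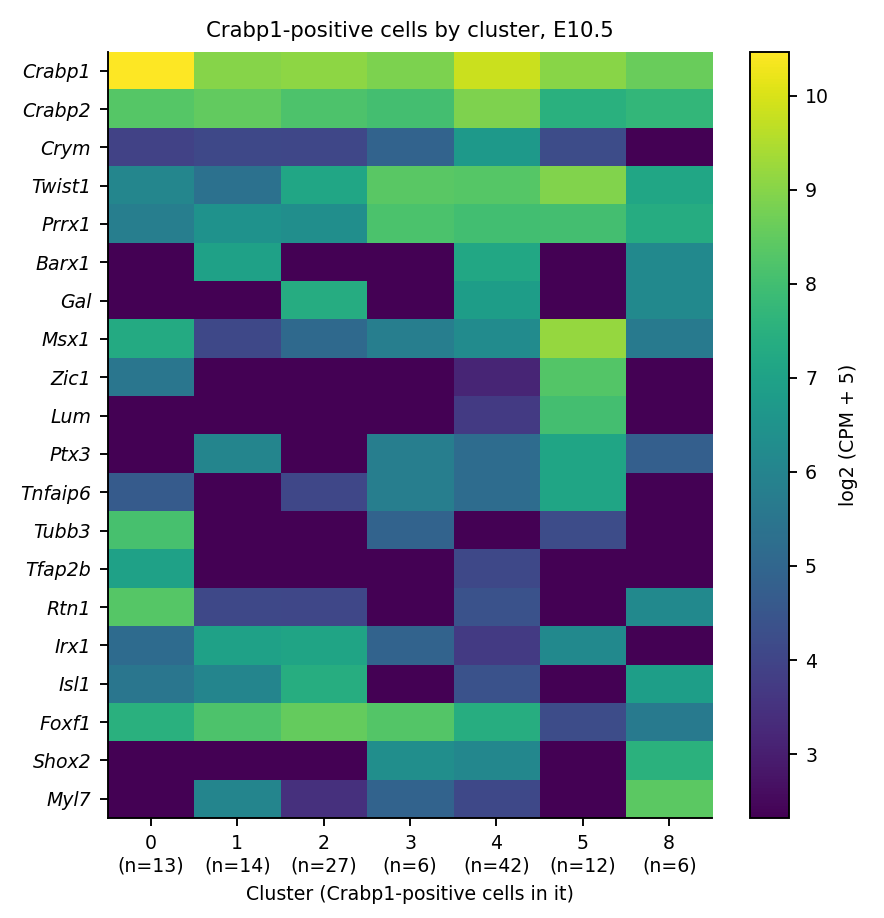
Level (colour, log2 of CPM with 5 added) of 20 genes in the Crabp1-positive cells of each cluster at resolution 1.0 with at least 6 of them, with the number of cells below the cluster number. Crym is highest in cluster 4, Zic1, Msx1 and Lum in cluster 5, and Tubb3, Tfap2b and Rtn1 in cluster 0.

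Several of the largest folds came mainly from those few neural gene cells. With the 20-cell cluster left out of both classes, a choice made after these values were seen, Tubb3 was at 0.404-fold, against 4.49 with it, Rtn1 at 1.17-fold against 3.76 and Pls3, an actin bundling gene, at 1.69-fold against 4.14. Fabp7, a brain fatty acid binding protein gene, was at 3.16-fold against 4.18, and Gap43, a growth cone gene, at 5.2-fold against 5.74. Msx1 (4.75), Msx2 (6.79), Shox2 (7.04) and Ptx3 (14.3) had folds at least as large without it. In that setting 61 genes were higher, 47 of them among the 79, and 108 lower, 81 of them among the 133.

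Neural crest markers were present in some members at low counts. Over all 9 markers the summed level was 83.7 CPM in positive and 58.7 CPM in negative middle cells, and 280 and 66.3 CPM in posterior cells. The 1 marker with enough UMIs to count as measured, Ets1, was at 0.82-fold (0.554 to 1.21). Ets1 alone was 35.7 of the 83.7 CPM in positive and 55.9 of the 58.7 CPM in negative middle cells. Dlx2, a homeobox gene of arch crest, had 9 UMIs in 7 positive middle cells and 4 UMIs in 3 positive posterior cells, against 0 in all 521 negative cells. Tfap2b had 8 and 7 UMIs in positive cells and 0 and 4 in negative cells. Sox10 had 1 and 2 UMIs and Foxd3 0 and 5 UMIs in positive cells. A Tfap2a UMI was found in 2 of 103 middle and 2 of 23 posterior positive cells, and a Dlx5 UMI in 3 and 0. In negative cells both were found in 0 of 130 and 0 of 391. Sox10 and Foxd3 were thus close to 0 in the middle members, while Dlx2, Dlx5, Tfap2a and Tfap2b were found in a few. The origin of the cells was not tested.

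Markers of other cell types differed in both directions. Cushion mesenchyme markers summed to 375 CPM in positive and 135 CPM in negative middle cells and to 326 and 90.6 CPM in posterior cells; of 3 measured, Msx1 and Twist1 were higher and Sox9 was at 1.22-fold. Neural markers summed to 96.1 and 45.8 CPM in middle and to 91.2 and 61.8 CPM in posterior cells, with Tubb3 higher, Nefm at 0.769-fold and Pax6 at 0 in the members. The erythroid list summed to 2039 CPM in positive and 5150 CPM in negative middle cells, and to 2098 and 2453 CPM in posterior cells. Of the 1121 Hba-x UMIs in negative middle cells, 766 lay in 1 cell, and a Hba-x UMI was found in 98 of 103 positive and 123 of 130 negative middle cells. Endothelial markers summed to 18.6 and 24.3 CPM in middle and 13.0 and 18.9 CPM in posterior cells, with Pecam1 at 0 in the members. Cardiomyocyte markers summed to 18.6 and 37.2 CPM in middle cells and to 163 and 67.6 CPM in posterior cells, with Myh6 at 0 in the members. In posterior members Myl7, an atrial light chain, had 17 UMIs, 9 of them in 1 cell. The part of these cell types in the folds was not tested.

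The E9.5 sample, which the rule did not use, held few such cells. Thinned to 4000 UMIs, 3 of 61 middle and 6 of 410 posterior E9.5 cells passed the same rule (4.92% and 1.46%). At E10.5 the thinned shares were 23.3% and 3.57%. There was 1 sample per stage, and E9.5 cells were deeper, so stage cannot be told apart from sample and depth. Unthinned, 18 of 61 middle and 64 of 418 posterior E9.5 cells passed.

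E9.5 folds used the full counts of cells whose class was set on thinned counts. The negative class then held 30 middle and 325 posterior cells, against 11 and 156 by the unthinned rule. Many E9.5 negative cells thus held a Crabp1 or Epcam UMI before thinning, and the part of this in the folds was not tested. With 9 positive cells, most of the genes above could not be compared at E9.5. Of the 79 higher genes 4 were measured there and 2 had an E9.5 fold above 1, against 47.0% of the 3387 genes measured at both stages. Of the 133 lower genes 23 were measured and 13 had an E9.5 fold below 1, against 53.0%. These shares are near those of all genes. Of the 23 lower genes 7 were also at most 0.5-fold at E9.5, against 2.57% of genes measured at both stages, and of the 4 higher genes 0 were at least 2-fold higher, against 0.0295%. By gene, Krt18 was at 0.210-fold at E10.5 and 0.309-fold (0.187 to 0.512) at E9.5, and Crabp2 at 1.96-fold and 1.59-fold (1.26 to 2.01). Acta2 had 0 UMIs in the 9 E9.5 positive cells and 96 middle and 5808 posterior UMIs in the E9.5 negative cells. Aldh1a2 was at 0.498-fold at E10.5 and 1.21-fold (0.893 to 1.65) at E9.5, and Bambi at 2.03-fold and 0.824-fold (0.563 to 1.21).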

How the data were processed

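For each stage the authors deposited a table of unnormalized UMI counts, with genes in rows and cells in columns, made with Cell Ranger 3.0 and Seurat on mm10, per the submitters' processing notes. Their cell filters and annotation are not given in the sources used here. Positions come from barcode suffixes, per the labels. No cell was removed. Coordinates are from GENCODE vM21 on GRCm38 (98.95% of E10.5 symbols matched).

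Counts were summed per class and library (numpy 2.4.6, scipy 1.17.1). Mantel-Haenszel folds have Greenland-Robins intervals, and library folds have exact conditional Poisson intervals; both cover counting error only, and UMIs within a cell are not independent. The fold and its interval were checked on simulated counts. A class at 0 was set to 3 UMIs where a bound is given. List medians use 5 CPM added and are given for lists with at least 5 measured genes. Clusters were made in scanpy 1.11.5 (Leiden, igraph 0.11.9). Genes were named from the lists, and as the 15 largest and 12 smallest folds. The cells, lists and alternatives were chosen with earlier results of these data known. Some genes of these are not reported here.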

Additional observations from a re-analysis of the deposited data

Results flagged for a closer look

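Flagged were 3 genes whose Crabp1-positive over Crabp1-negative fold went opposite ways in 2 settings of the same contrast. They are not the only ones: by point value, Lum and Gata6 by library, and Aldh1a2 and Bambi by stage, also did so above. Middle Gata6 lay close to no change, and the E9.5 intervals of Aldh1a2 and Bambi included no change. None of these differences was tested. Barx1 was at 6.28-fold in the middle and 0.473-fold in the posterior library at E10.5. Tagln was at 0.139-fold in the middle and 2.13-fold in the posterior library. Tnni1, a slow troponin gene, was at 2.03-fold at E10.5 and 0.176-fold at E9.5, with 23 UMIs in the E10.5 and 12 in the E9.5 positive cells.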

How the results depend on the processing

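No paired analysis was possible because each stage has 1 sample. The threshold of at least 5 Crabp1 UMIs and the removal of the neural gene cluster were chosen after seeing the data. Against 79 higher and 133 lower genes, the counts were 31 higher (Crabp1 of at least 3 UMIs) and 14 higher (at least 5). They were 27 higher with cells thinned and the classes set again from thinned counts, and 39 higher with equal weight of the libraries. With an expected count of at least 5 they were 185 higher and 331 lower, and with 20 they were 22 and 38. The posterior library alone gave 11 higher and 59 lower; 2 of the 79 and 14 of the 133 were measured there, and 0 and 8 were called again. From 1 Crabp1 UMI up the counts were 83 and 120, but 32 of the 79 and 32 of the 133 were among them, all measured. At 3 UMIs 18 of 24 measured higher genes and 38 of 56 lower ones were called again, thinned 11 of 18 and 29 of 43, at 5 UMIs 5 of 6 and 19 of 24, and with equal library weight 36 of 79 and 68 of 133. Tubb3 reversed, to 0.404, without the neural gene cluster. The Wnt median (−0.29) was −0.47 and −0.52 at Crabp1 of at least 3 and 5 UMIs, −0.13 thinned, −0.15 with Epcam-bearing negative cells, −0.086 in the middle library, −0.15 without the neural gene cluster, −0.41 with equal library weight and −0.17 with equal cell weight. The BMP median was 0.24 at Crabp1 of at least 1 UMI. At 3 and 5 UMIs the Hox median was 0.22 and 0.32 and the guidance median −0.42 and −0.42, and at 5 the matrix median was −0.37. The glycolysis median was 0.30 thinned, the mesenchymal median 0.31 with Epcam-bearing negative cells and −0.20 with equal library weight, and the anterior field median −0.54 in the posterior library. The share of positive cells at 1 UMI, at 3 UMIs and thinned was 52.0%, 17.2% and 23.3% in the middle library, and 8.93% and 2.50% at 1 and 3 UMIs in the posterior. With both rule and counts thinned at E9.5, the same-direction shares were 100% of 1 higher and 100% of 2 lower genes. The largest share in 1 cluster was 77.0% at resolution 0.3 and 33.3% at 1.0. The causes were not tested, beyond the fewer cells or UMIs that stricter rules leave. In the posterior library alone Foxf2, Rnf13, Nfatc4, Rab3gap2, Kank2 and Zfp961, at 0 UMIs in the members, gave no direction, and Tnfaip6, at 0 in the negative cells, gave no finite fold. Of the other values, 345 folds of named genes and 222 list medians were marked as unchanged. For medians near 0 that mark did not require the same sign. The FGF median (0.11) was −0.03 from 1 Crabp1 UMI up and −0.07 thinned. The matrix and S phase medians (0.03 and 0.05) were −0.10 and −0.08 at Crabp1 of at least 3 UMIs.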
